A study of Mus musculus with 6 samples.

Results

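Stra8-negative spermatogonia were the barcodes of a mouse testis single-cell data set that carried transcripts of the mitotic male germ line and no detected transcript of Stra8. They numbered 214 of 54253 deposited barcodes. A barcode, which stands for 1 captured cell, was chosen by its own counts: at most 20% mitochondrial transcripts, at least 4000 unique molecular identifiers (UMIs, each marking a captured RNA molecule), at least 4 UMIs from at least 3 of the 8 genes Uchl1, Crabp1, Sohlh1, Dmrt1, Sall4, Rhox13, Gfra1 and Zbtb16, fewer UMIs from the 6 early meiotic genes Prdm9, Meiob, Dmc1, Rad51ap2, Gm960 and Mei4, and 0 UMIs of Stra8. Because these 15 genes chose the members, their values are given as a description and entered no test. Barcodes of the same gate with at least 1 UMI of Stra8 (Stra8-positive spermatogonia, 176) and barcodes with at least 4 UMIs from at least 3 of the 6 early meiotic genes, and more of them than of the 8 (early meiotic spermatocytes, 193), served for comparison.

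The series held 6 libraries made from the left testis of ICR mice, an outbred stock, 3 from control males and 3 from males exposed to cigarette smoke. The exposed males received the smoke of 15 cigarettes in a daily session of 30 minutes over 12 weeks, with 1.1 mg nicotine and 11 mg tar per cigarette and a particle concentration of 3.47 mg/m3, and control males sat in a smoke-free chamber. All males were 6 weeks old when purchased and had 1 week to adapt, which does not match the 8 weeks given as their age in the labels. Each group had 7 mice, and the labels do not tie a library to a mouse, so every p-value rests on the spread between libraries alone, which may be technical.

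Spermatogonia are the mitotic germ cells on the basement membrane of the seminiferous tubule. A small undifferentiated pool responds to the growth factor GDNF through the co-receptor Gfra1 and the kinase Ret and renews itself. Retinoic acid moves cells into differentiation, marked by the stem cell factor receptor Kit, and it induces Stra8, a transcription regulator that germ cells need for meiosis. Absence of Stra8 transcripts is therefore known of undifferentiated cells and of differentiating cells at stages when the gene is silent, and in droplet data also of cells whose few Stra8 molecules were missed.

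The members came from all libraries: controls 1, 2 and 3 gave 46, 34 and 38, and smoking libraries 1, 2 and 3 gave 32, 36 and 28. Each library had between 39607204 and 78455606 deposited UMIs. Members had a median of 10347 UMIs. The threshold on depth took in 8 members of 4004 to 4853 UMIs and left out 7 barcodes of 3216 to 3923 UMIs that met the other criteria. At the threshold on the 8 genes, 11 members had 4 of their UMIs, at a median of 6992 UMIs per barcode, and 9 barcodes just outside had 3, at a median of 6751. Just outside the Stra8 criterion, 50 gated barcodes had 1 UMI of Stra8 and 20 had 2, whereas 106 had 3 or more at a median depth of 15946 UMIs. A Stra8 UMI was also found in 18 of 6261 barcodes rich in protamine transcripts (0.287%, median depth 14331 UMIs). Their own transcripts were not told apart from free RNA. Outside the 3 classes, 103 of 12242 barcodes within the limits on depth and mitochondrial transcripts had one (0.841%), a count that includes the protamine-rich barcodes. No barcode sequence was a member in more than 1 library, and 4 members had a sequence that also occurred in another library.

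Among the members, 15 barcodes stood apart from the rest. Transcripts of 12 elongating spermatid markers (Prm1, Prm2, Tnp1, Tnp2 and others) took at least 10% of the UMIs in 7 of them, Sertoli cell markers at least 0.5% in 6, and the 8 spermatogonial genes fewer than 2 of every 10000 UMIs in 8, with some barcodes in more than 1 of these sets. Of the 6 with Sertoli markers, 5 were from controls and 1 was from a smoking library. These barcodes were large: a single one in smoking library 2 had 369784 UMIs, 37.6% of that library's summed member counts, with only 8 UMIs of the spermatogonial genes. Another in control 3 had 333607 UMIs (42.7% of its sum), with 4. The other 199 members had a median of 10239 UMIs and 14.1 UMIs of the 8 genes per 10000. Summing the 199 in place of the 214 raised the correlation of log2 values between pairs of libraries, over genes, from between 0.639 and 0.937 to between 0.907 and 0.952, where genes are not independent replicates. This division was made after the data were seen. Main counts are given for both sets, some results for the 199 alone, and levels are those of the 199 unless the 214 are named. Over all deposited barcodes, control 3 correlated most with smoking library 1 (r = 0.996) and less with controls 1 and 2 (0.985 and 0.990).

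**Figure D1:**
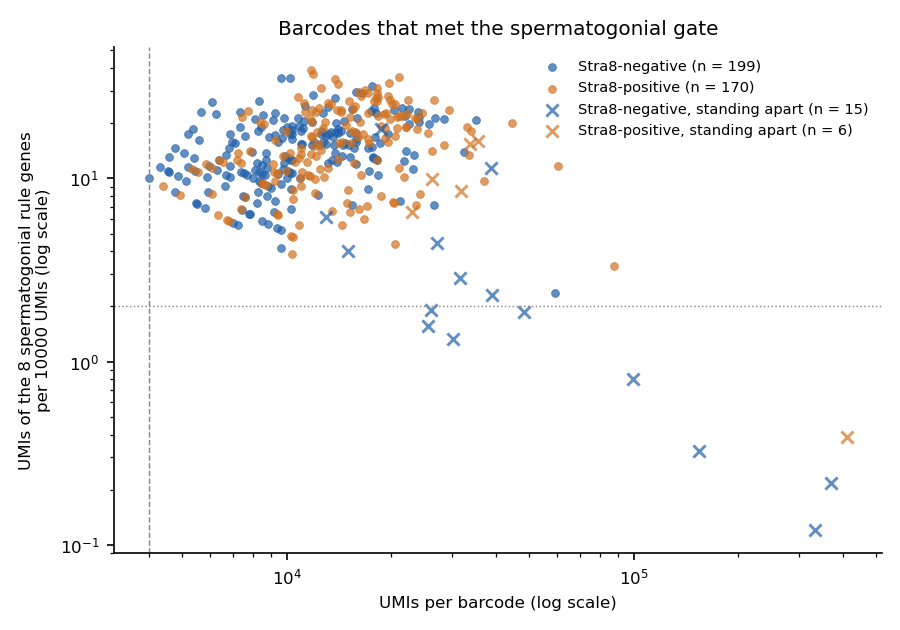
Each point is 1 barcode that met the spermatogonial gate; the x axis is its UMIs and the y axis the UMIs of the 8 spermatogonial genes per 10000, both on log scales, with colour for Stra8 status and large crosses for barcodes standing apart. The largest barcodes lie far to the right and low, and Stra8-negative and Stra8-positive barcodes cover the same area, at median depths of 10239 and 14089.5 UMIs without those standing apart.

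The genes that chose the members were not equally widespread among them. Uchl1, a deubiquitinase abundant in spermatogonia, had a UMI in 96.5% of the 199 members, Dmrt1, a germ cell transcription factor, in 92.5%, and Crabp1, which binds retinoic acid, in 83.9%. Sohlh1 and the X-linked homeobox gene Rhox13 were found in 63.3% and 63.8%. Zbtb16 (PLZF), a repressor of undifferentiated cells, was in 51.8%, Sall4, a zinc finger protein of the same cells, in 27.1%, and Gfra1 in 7.54%. When every barcode was thinned to 4000 UMIs, these shares fell to 82.4%, 66.3%, 61.3%, 33.2%, 34.7%, 33.2%, 10.1% and 3.52% in the order Uchl1, Dmrt1, Crabp1, Sohlh1, Rhox13, Zbtb16, Sall4 and Gfra1. Protamine-rich barcodes had a Gfra1 UMI in 1.98% (0.511% after thinning), below the members' share. Of the 6 marker genes of the label, Uchl1, Dmrt1, Crabp1 and Zbtb16 were thus found in most members, Sall4 in a minority and Gfra1, the marker of the stem cell pool, in few. All 6 are genes of the rule, so these shares are no check of the label.

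Genes the rule did not use showed the same mixture. Epcam, an adhesion protein of spermatogonia, had a UMI in 87.4% of members (65.3% after thinning, against 14.2% of protamine-rich barcodes) and the cell cycle gene Ccnd1 in 84.4%. The transcription factor genes Pou3f1 and Sox3 were found in 56.3% and 48.7%, Foxo1 in 49.2%, and the RNA-binding Lin28a in 20.1%. Kit was found in 51.3% (29.6% after thinning), against 67.1% of Stra8-positive barcodes (37.1% after thinning) and 2.62% of protamine-rich barcodes. Genes of the self-renewing pool were rare: Ret in 8.54%, Etv5 in 6.53%, Nanos2 in 4 of 199 members, Bcl6b in 3, and Eomes and Pax7 in 2 each. Id4 was no more frequent in members than in protamine-rich barcodes after thinning (5.53% and 6.12%), and Dmrtb1 was found in 59.3% and 42.7%. Mki67 and Top2a, made by dividing cells, were found in 72.9% and 89.4%.

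**Figure D2:**
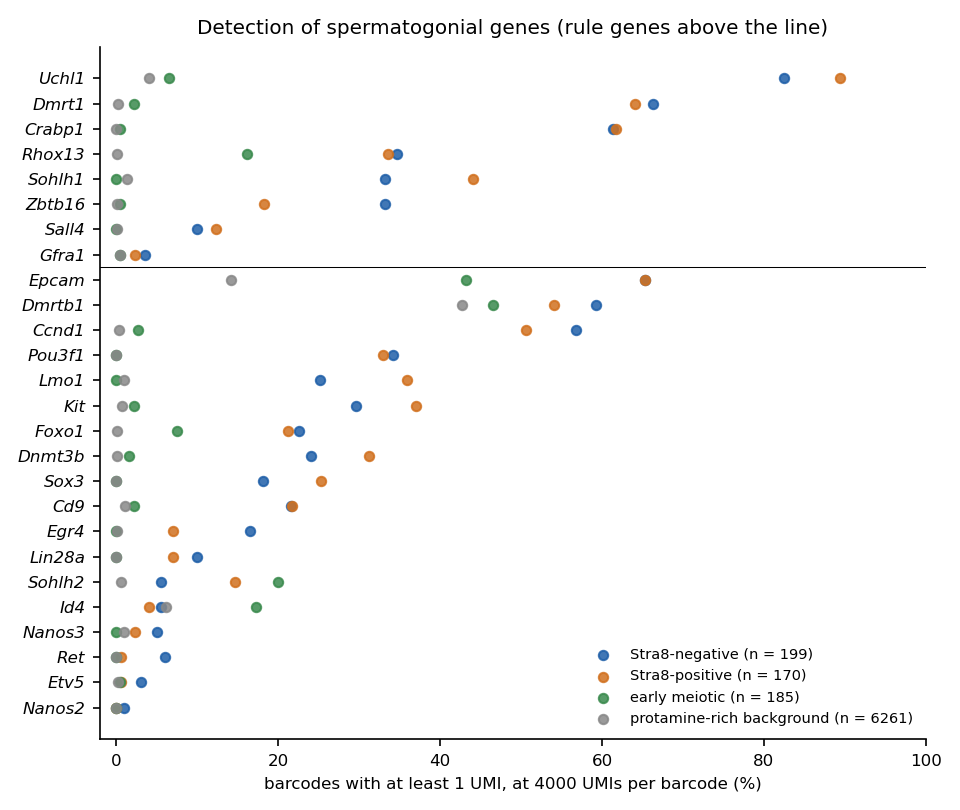
Share of barcodes with at least 1 UMI of each gene after thinning every barcode to 4000 UMIs, for the 199 members, Stra8-positive, early meiotic and protamine-rich barcodes; the 8 genes above the line chose the members. Uchl1 lies near 82.4% in members and Gfra1 near 3.52%, and Id4 lies at about the same place in members and protamine-rich barcodes.

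Markers of other cell types were summed in the members. The 199 were defined by limits on Sertoli and elongating spermatid transcripts, so their levels of those lists are a description. Over 13 Sertoli markers the summed level was 97.5 to 204 UMIs per 1000000 (CPM) in controls and 120 to 312 CPM in smoking libraries, with 1 gene at 0, whereas over all 214 it was 1149 to 3148 CPM in controls and 114 to 1116 CPM in smoking libraries. Over 9 macrophage markers the sum was 2.2 to 5.4 CPM in controls and 3.0 to 13.4 CPM in smoking libraries, with 5 genes at 0. All 5 red blood cell genes were at 0. Over 8 Leydig cell markers the sum was 18.6 to 30.0 CPM in controls and 20.8 to 648 CPM in smoking libraries, the top value being that of smoking library 2, where the hormone gene Insl3 reached 171 CPM and was at 0 in the other 5 libraries. The elongating spermatid list took 21442 to 23564 CPM in controls and 16446 to 24239 CPM in smoking libraries, and Prm1 was found in every member, as it was in every Stra8-positive and early meiotic barcode. A doublet score above the cut-off set by an assumed doublet rate was given to 33 of the 214 members and to 27 of the 199.

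Gfra1 and Kit marked nearly separate members. Of the 199, 15 had a Gfra1 UMI, 102 a Kit UMI, 1 had both and 83 neither. Gfra1 was found in 2, 3 and 4 members of controls 1 to 3 and in 2, 3 and 1 of smoking libraries 1 to 3, so no library supplied most of them. In the members with Gfra1, its partner kinase Ret had a UMI in 53.3% against 4.89% of the members without. Etv5, a transcription factor that GDNF induces, was found in 46.7% against 3.26%, and all 4 members with Nanos2, an RNA-binding repressor of differentiation, had Gfra1. Zbtb16 was found in 93.3% against 48.4%, Egr4 in 80.0% against 22.3%, Lin28a in 60.0% against 16.8%, the D-type cyclin gene Ccnd2 in 80.0% against 13.6%, the adhesion genes Cdh1 and Itga6 in 40.0% against 4.35% and in 60.0% against 13.04%, and the surface proteoglycan gene Sdc4 in 80.0% against 20.1%. Other genes went the opposite way: Kit was found in 6.67% against 54.9%, Rhox13 in 26.7% against 66.8%, Prss50 in 6.67% against 39.1% and Mki67 in 46.7% against 75.0%. Genes listed for one stage did not all move together. Of those listed for differentiating cells, Ccnd2, Sohlh2 (26.7% against 18.5%), Lmo1 (66.7% against 52.2%) and Dnmt3b (53.3% against 48.9%) were more frequent with Gfra1. Of those listed for undifferentiated cells, Sox3 (40.0% against 49.5%), Epcam (80.0% against 88.0%) and Ddit4l (0% against 7.07%) were less frequent. Members with Gfra1 had a median of 13431 UMIs and those without 10047.5, and the part of depth in these shares was not tested. These shares are over members pooled from 6 libraries and carry no test. Gfra1, Zbtb16 and Rhox13 are genes of the rule that chose the members, whereas the other genes named here are not. A Gfra1 UMI counted toward that rule, so a member with Gfra1 needed fewer UMIs of the other rule genes. The part of this choice in the shares of Zbtb16 and Rhox13 was not tested.

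The members split by Kit showed the other side for some of these genes. Mki67 was found in 91.2% of the 102 members with Kit and in 53.6% of the 97 without, Ccnd1 in 98.0% and 70.1%, and Rhox13 in 79.4% and 47.4%. Sdc4 was found in 7.84% with Kit and 42.3% without, Nanos3 in 1.96% and 23.7%, and Ret in 0.980% and 16.5%. The median depth was 10960.5 UMIs with Kit and 9609 without. Zbtb16 did not follow this split, with 52.0% and 51.5%. Neither did Itga6 (15.7% and 17.5%), Sox3 (49.0% and 48.5%) and Sohlh2 (19.6% and 18.6%). Pou3f1 (63.7% and 48.5%) and Epcam (92.2% and 82.5%), both listed for undifferentiated cells, were more frequent with Kit.

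**Figure D3:**
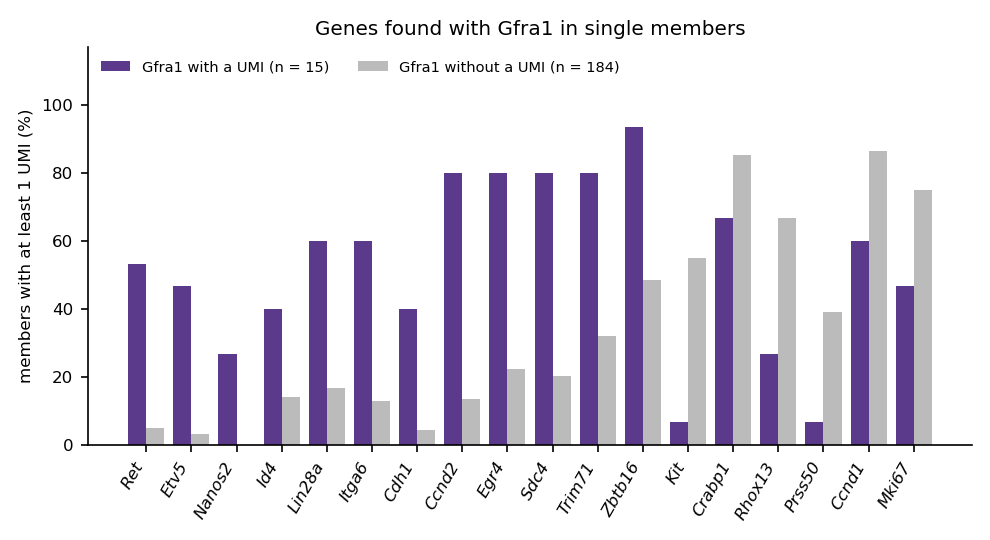
Share of members with at least 1 UMI of each gene, for the 15 members with a Gfra1 UMI (purple) and the 184 without (grey). The bars for Ret (53.3% and 4.89%), Etv5 (46.7% and 3.26%) and Ccnd2 (80.0% and 13.6%) are far apart in one direction and those for Kit (6.67% and 54.9%) in the other.

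The comparison with Stra8-positive spermatogonia asks which other genes differed within one gate when Stra8 was absent. The sums of counts over each class in each library were compared with edgeR's quasi-likelihood test, with the library as a block. Without the barcodes standing apart, 92 of 6734 genes passed an adjusted p of 0.05 (1.37%), 53 higher and 39 lower in members. With all barcodes, 269 of 6840 passed (3.93%), 242 higher and 27 lower, and the 2 sets shared 30 of the higher genes (12.4% of the first, 56.6% of the second, in the order all barcodes then without those standing apart) and 12 of the lower ones (44.4% and 30.8%). Depth moved with the classes: the median was 10239 UMIs in members and 14089.5 in Stra8-positive barcodes, and its part was not tested. The counts also rested on single libraries. With all barcodes, 0 genes passed without control 1, without control 2 or without smoking library 1, 1 without smoking library 2, 649 without control 3 and 397 without smoking library 3, whereas without the barcodes standing apart 39 (without control 1) to 158 (without smoking library 2) passed. DESeq2 called 446 and 5 genes in the 2 sets.

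Genes lower in the members included germ cell genes that rise toward meiosis. Prss50, a testis protease, was at 78.6, 83.5 and 92.6 CPM in controls 1 to 3 and 89.2, 80.1 and 38.3 CPM in smoking libraries 1 to 3, against 158, 132 and 111 CPM and 237, 210 and 107 CPM in the Stra8-positive sums of the same libraries. It was lower in members in every library, with a log2 fold of -1.01 (SE 0.15, edgeR adjusted p = 4.99e-05; -1.14 and adjusted p = 0.0476 with all barcodes), and early meiotic cells had 456 CPM ± 35.1 (SD, n = 6). Tex101, a surface glycoprotein of germ cells, was at 210 CPM ± 6.7 in members and 338 CPM ± 64.4 in Stra8-positive sums (SD, n = 6), a log2 fold of -0.66 (SE 0.11, edgeR adjusted p = 0.000213). Its member values lay between 197 and 215 CPM, while the Stra8-positive values lay between 237 and 403 CPM, so the 2 classes did not overlap. Ly6k, a surface protein that binds Tex101, was at 55.6 CPM ± 15.7 and 105 CPM ± 17.5 (log2 fold -0.89, SE 0.17, edgeR adjusted p = 0.00226; -0.70 and adjusted p = 0.0727 with all barcodes).

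In the list of 29 early meiosis genes, 16 that the rule did not use could be tested: 2 were called lower, none was called higher, and 15 of the 16 log2 folds were negative, with a median of -0.19 beside 0.01 over all genes tested. The called genes were Rec8, which encodes the meiotic cohesin subunit, and Sycp3, a component of the synaptonemal complex. Rec8 was at 20.2, 23.2 and 5.45 CPM in the controls and 17.8, 20.03 and 13.7 CPM in the smoking libraries of members, against 41.2, 35.9 and 69.2 CPM and 29.7, 47.0 and 45.3 CPM in Stra8-positive sums (log2 fold -1.34, SE 0.28, edgeR adjusted p = 0.00584). Every member value was below every Stra8-positive value, and the call was lost without control 3. Sycp3 was lower in 5 of 6 libraries (log2 fold -0.38, edgeR adjusted p = 0.0459). With all barcodes 0 of the 16 were called and 12 were negative (median -0.31).

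Of the differentiating spermatogonia list, 8 genes were tested and 1 was called, Prss50. The log2 fold of Kit was -0.30 (edgeR adjusted p = 0.314), that of Sohlh2, a transcription factor of differentiating cells, -0.98 (adjusted p = 0.0524), and that of Dnmt3b, a de novo DNA methyltransferase, -0.53 (adjusted p = 0.0576). With all barcodes, Sohlh2 and Dnmt3b were called lower by edgeR (adjusted p = 0.0476 for both, log2 folds -1.06 and -0.72). The log2 fold of Dmrtb1 was 0.41 (edgeR adjusted p = 0.0547) and that of Ccnd1 0.29 (edgeR adjusted p = 0.16). Without the barcodes standing apart, the retinoid, S phase, G2 and M phase, glycolysis, apoptosis and p53 lists had no called gene. With all barcodes, the cyclin gene Ccne2 of the S phase list was called lower (log2 fold -0.67) and the hexokinase gene Hk1 of the glycolysis list higher (0.76), each with an edgeR adjusted p of 0.0476. The summed S phase list was at 3087 CPM ± 200 in members and 3041 CPM ± 180 in Stra8-positive sums (SD, n = 6), a difference below the spread between libraries.

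Further genes lower in the members in all 6 libraries were Fis1, a mitochondrial fission factor (105 CPM ± 19.4 against 180 CPM ± 24.8), the co-repressor gene Aes (91.5 against 160 CPM), the cytoplasmic deacetylase gene Hdac6 (108 against 162 CPM) and Ubr2, a ubiquitin ligase that male meiosis requires (48.9 against 80.5 CPM). Their log2 folds were -0.73, -0.76, -0.56 and -0.74, with edgeR adjusted p of 0.000602, 0.00112, 0.0138 and 0.0257. Snx4 (-0.91), Celf2 (-0.69), Pcsk1n (-0.67), Smagp (-0.62) and Rnd2 (-0.59) were also lower in every library. In the 6 fits that each left out 1 library, the calls of Prss50, Tex101, Ly6k, Fis1, Aes, Snx4 and Pcsk1n were kept every time, those of Hdac6, Ubr2, Celf2, Smagp and Rnd2 were each lost at least once, and that of Sycp3 was kept only without smoking library 3.

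Prss50 is printed with the 250 bases before its transcription start because it was among the genes called lower both with and without the barcodes standing apart and by DESeq2 without them, and because the motif CNCCTCAG, reported for STRA8, occurs there. The sequence is from RefSeq, build GRCm38.p6, chr9:110857714-110857963, plus strand, 5′ to 3′, and the capitals mark the match, which is on the minus strand and lies at -164 from the start.
Prss50 upstream: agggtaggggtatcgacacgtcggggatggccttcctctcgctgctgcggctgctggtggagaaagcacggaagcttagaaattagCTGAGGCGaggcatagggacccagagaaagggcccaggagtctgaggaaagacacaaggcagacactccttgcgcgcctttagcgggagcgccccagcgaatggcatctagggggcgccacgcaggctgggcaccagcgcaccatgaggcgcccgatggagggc
Searched on both strands from 250 bases before to 50 after the start, the motif was in 4 of the 29 lower genes that had a promoter in the table (13.8%, of 39 called), in 6 of 44 higher genes (13.6%, of 53 called), in 654 of 5388 tested genes (12.1%) and in 2465 of 27025 promoters in all (9.12%). The shares of the lower and the higher genes were thus near that of all tested genes, and a match is not evidence of binding.

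Genes higher in the members included 2 kinds. The first had values above those of early meiotic and protamine-rich cells. Sox4, a transcription factor, was at 222, 165 and 199 CPM in controls 1 to 3 and 238, 203 and 161 CPM in smoking libraries 1 to 3, against 163, 92.1 and 106 CPM and 184, 126 and 97.0 CPM (log2 fold 0.66, SE 0.12, edgeR adjusted p = 0.00113), higher in 6 of 6 libraries. Zfp36l1, which binds AU-rich RNA and promotes its decay, was at 121 CPM ± 23.2 against 77.5 CPM ± 22.5 (log2 fold 0.68, SE 0.15, edgeR adjusted p = 0.0122), and its call was lost without smoking library 3. The amino acid transporter gene Slc38a2 was at 86.9 CPM ± 16.2 against 56.8 CPM ± 8.6 (log2 fold 0.62, edgeR adjusted p = 0.0459), a call kept in 1 of the 6 fits that each left out a library, while that of Sox4 was kept in all 6. With all barcodes, Sox4 (edgeR adjusted p = 0.0538), Zfp36l1, Slc38a2 and Egr4 were not called. Egr4, a zinc finger transcription factor and the 1 called gene of 7 tested in the undifferentiated spermatogonia list, was at 62.8 CPM ± 19.99 against 35.9 CPM ± 27.1 (SD over 6 libraries), and the fit gave a log2 fold of 0.92 (SE 0.24, edgeR adjusted p = 0.0411). Egr4 was higher in 5 of 6 libraries, control 1 having 62.9 CPM in members and 87.1 CPM in Stra8-positive sums. When 1 library was left out, Egr4 was called only without control 1.

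The second kind were transcripts of spermatids. Fam209, Tex33, Izumo2, Fam183b and Cypt4 had log2 folds of 0.92, 0.73, 0.73, 0.70 and 0.59, and of the 53 genes called higher, 37 (69.8%) had a higher level in protamine-rich barcodes than in members, against 17.8% of all genes tested and 0 of the 39 genes called lower. With all barcodes this was 216 of 242 (89.3%). The elongating spermatid list took 4.85% of UMIs in all members and 2.80% in all Stra8-positive barcodes, higher in members in 5 of 6 libraries (exact two-sided sign-flip p = 0.0625). In the set without the barcodes standing apart, limited to under 10% of these transcripts per barcode, it took 2.17% and 1.89%, higher in members in 4 of 6 libraries (exact sign-flip p = 0.125). Its part in the higher genes was not tested. Without the barcodes standing apart, 72 of 85 ribosomal protein genes had a positive log2 fold, beside 3475 of 6734 genes over all. Of the 85, 2 were called higher, Rpl38 and Rps26, which DESeq2 also called (log2 folds 0.37 and 0.29, DESeq2 adjusted p = 0.00154 and 0.0191). With all barcodes 54 of 85 were positive and 0 were called. Malat1, Sh3glb1 and Odf2 were called higher before and after thinning of the set without barcodes standing apart.

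**Figure D4:**
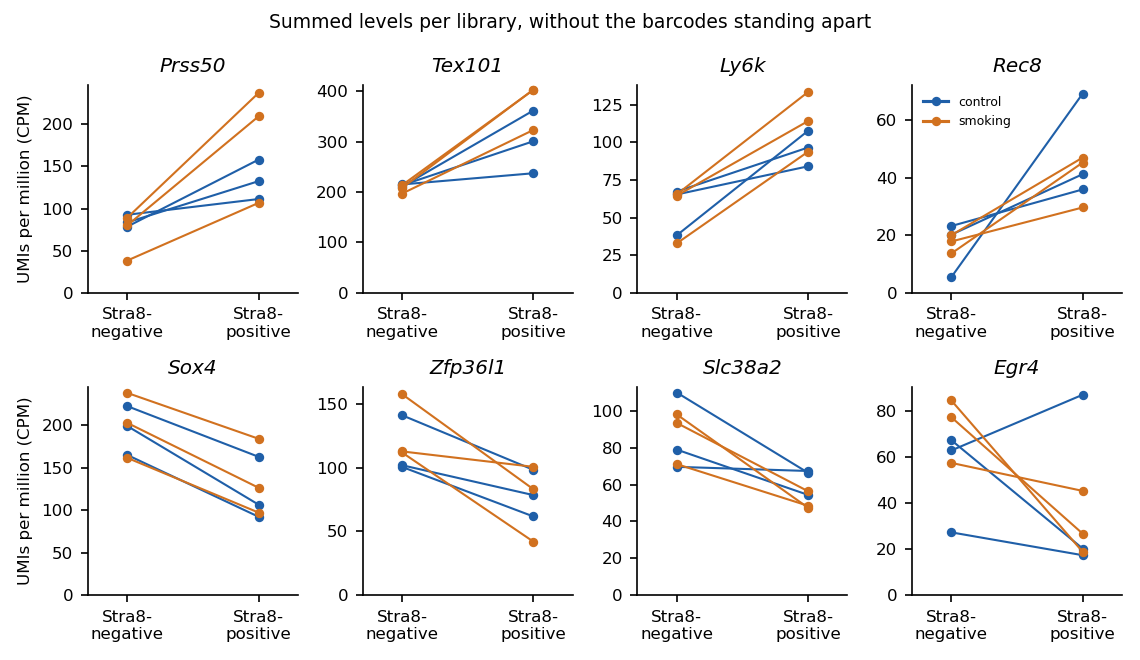
Summed level in CPM (y axis, from 0) of 8 genes in Stra8-negative and Stra8-positive spermatogonia; each line joins the sums of 1 library, control in blue and smoking in orange, without the barcodes standing apart. Prss50, Tex101, Ly6k and Rec8 rise to the right in every library, Sox4, Zfp36l1 and Slc38a2 fall in every library, and Egr4 rises in 1 control library.

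Members differed from early meiotic spermatocytes in most genes. The 2 classes were separated on the 14 genes of the gates, so a large number of differences follows from the choice. Further genes that rise or fall with the 14, meiotic genes among them, are bound to differ in the same direction. Their differences describe the classes and are not independent of the choice. Without the barcodes standing apart, 4668 of 6761 genes passed in edgeR (69%), 2398 higher and 2270 lower in members. With all barcodes, 3865 of 8114 passed (47.6%), 1871 higher and 1994 lower. A gene near 0 in one class passed the filter on low counts only through the other class, so the list counts below are descriptions of the genes tested.

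Meiotic genes outside the rule were lower in the members. Of 19 tested genes of the early meiosis list, 16 were called lower and 3 higher (median log2 fold -1.83, 0.06 over all genes), and with all barcodes 13 of 20 were called lower and 1 higher. Sycp3 was at 268 CPM ± 32.5 in members and 3148 CPM ± 263 in early meiotic cells (SD over 6 libraries), a log2 fold of -3.52 (SE 0.08, edgeR adjusted p = 4.9e-65), and Sycp1, the transverse filament of the synaptonemal complex, at 239 CPM ± 44.0 and 2554 CPM ± 224 (-3.39). Hormad1, a chromosome axis protein, was at 41.1 and 866 CPM (-4.35), and Mybl1, a transcription factor of pachytene cells, at 6.6 and 160 CPM (-4.52). Tex101 and Ly6k, lower in members than in Stra8-positive cells, were lower still against early meiotic cells, at 2371 and 1367 CPM there. Of 15 tested genes of the list of germ cell RNA regulators and piRNA, which also held Tex101, 13 were called lower and none higher (median -0.99). With all barcodes 13 of 16 were called lower. The lower genes included the Piwi proteins Piwil1 (30.3 against 195 CPM) and Piwil2 (65.3 against 273 CPM) and the helicase Mov10l1 (261 against 736 CPM).

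Among spermatogonial genes outside the rule, Epcam was at 334 CPM ± 43.5 against 155 CPM ± 22.7 (log2 fold 1.14, edgeR adjusted p = 1.98e-17) and Foxo1 at 77.3 against 18.8 CPM (2.10), while Id4 was lower in members (18.7 against 101 CPM, -2.39). Egr4 had 152 UMIs in the 199 members and 0 UMIs in the 185 early meiotic barcodes, and Pou3f1 had 298 UMIs against 3. Genes of differentiating cells went both ways, Sohlh2 (16.8 against 67.5 CPM) and Prss50 being lower in members. Kit was at 91.7 CPM ± 21.1 against 5.5 CPM ± 4.8 (3.91), Ccnd1 at 264 CPM ± 41.6 against 6.0 CPM ± 3.3 (5.54) and Lmo1 had 265 UMIs against 2. The receptor for retinoic acid Rara was at 30.7 against 2.1 CPM (3.93), while the retinoid enzyme genes Rdh11 (38.7 against 88.6 CPM) and Aldh1a2 (30.0 against 62.5 CPM) were lower.

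Genes of mitotic cells and their metabolism went both ways, with more calls higher than lower in members. Of 24 S phase genes 17 were called higher and 4 lower (median 0.85), and with all barcodes 10 and 4, beside 2398 and 2270 of 6761 and 1871 and 1994 of 8114 over all genes. These included the replication licensing genes Mcm2, at 113 against 5.0 CPM, and Cdt1, at 62.0 against 2.0 CPM. Of 25 G2 and M phase genes 15 were called higher and 7 lower, and with all barcodes 8 and 6. Aurkb, the chromosome passenger kinase, was at 73.0 against 1.2 CPM and Ccna2 at 173 against 12.9 CPM, whereas Cks2 (245 against 939 CPM) and the condensin gene Smc4 (438 against 1359 CPM) were lower in members. Of 10 glycolysis genes 6 were higher and 1 lower (7 and 1 of 14 with all barcodes), and Gapdh was at 891 CPM ± 91.8 against 48.7 CPM ± 10.6 (4.22). Of 24 nucleolar genes 17 were higher and 2 lower (12 and 1 with all barcodes). Of 85 ribosomal protein genes, which can share reads with near-identical copies, 66 were higher and 10 lower (46 and 6 of 87 with all barcodes). The maintenance DNA methyltransferase Dnmt1 was at 274 against 26.5 CPM, Dnmt3b at 75.6 against 3.2 CPM (4.41) and the DNA demethylase gene Tet3 at 85.5 against 6.7 CPM (3.80).

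Genes of the X chromosome, which male germ cells silence during meiotic prophase, took 1.73% ± 0.123 of UMIs in all members and 0.810% ± 0.117 in early meiotic cells (SD, n = 6). The difference of 0.920 percentage points was positive in 6 of 6 libraries (exact two-sided sign-flip p = 0.031, the smallest 6 pairs allow). Without the barcodes standing apart it was 0.820, from 1.69% ± 0.0593 and 0.872% ± 0.0541, and the 2 classes did not overlap. Of 156 tested X-linked genes 116 were called higher and 12 lower (median log2 fold 1.20; 133 and 10 of 199 with all barcodes), among them the homeobox gene Esx1 (129 against 12.3 CPM), the ubiquitin-activating enzyme gene Uba1 (129 against 14.3 CPM) and Tex13b (141 against 24.6 CPM). The Y-linked gene Zfy2, a zinc finger gene active in meiosis, was lower in members (6.6 against 50.2 CPM), and Eif2s3y, which spermatogonia need to divide, was higher (115 against 80.1 CPM), a call lost with all barcodes (edgeR adjusted p = 0.0684). Against Stra8-positive cells the X-linked share differed by -0.0454 percentage points (SD of the difference 0.115), higher in 2 of 6 libraries (exact sign-flip p = 0.375).

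The comparison of smoking with control libraries asks whether exposure changed these cells. Of the barcodes with at least 4000 UMIs, all 214 members made up 2.94%, 1.98% and 1.71% in the 3 controls, in order, and 1.61%, 1.48% and 0.961% in the 3 smoking libraries. The groups did not overlap (2.21% ± 0.646 against 1.35% ± 0.345, SD, n = 3; exact permutation p = 0.1, two-sided, the smallest that 3 against 3 libraries allow). With the 199 members the difference was -0.779 percentage points and the groups overlapped (exact permutation p = 0.2). The denominator moved as well: 1832 ± 343 barcodes per control library and 2443 ± 465 per smoking library met both limits (exact permutation p = 0.2). As a share of all barcodes within the mitochondrial limit, members made up 0.467% ± 0.0813 and 0.365% ± 0.0596 (exact permutation p = 0.2). Among gated spermatogonia the Stra8-negative share was 58.2%, 52.3% and 59.4% in controls and 58.2%, 46.8% and 56.0% in smoking libraries (exact permutation p = 0.5), so the groups overlapped. The share of all UMIs in elongating spermatid transcripts was 11.6% ± 1.52 in controls and 14.7% ± 0.832 in the smoking group (exact permutation p = 0.1). Among the 199 members it was 2.24% ± 0.107 and 2.09% ± 0.402 (exact permutation p = 0.8).

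No gene passed an adjusted p of 0.05 in edgeR between smoking and control members. With all 214 members 0 of 7778 genes were called (0%, 134 at an unadjusted p under 0.05), and with the 199 members 0 of 6602 (0%, 384 at an unadjusted p under 0.05). DESeq2 called 1 gene in each, Gm3880 with all members and Npm1 with the 199. Values of the 2 groups did not overlap for 381 genes with all members (4.9%) and 758 with the 199 (11.5%). Counts were simulated at the depths of the 199 members, for 6544 genes above a minimum of summed UMIs and with an assumed dispersion of 0.1. In that setting 79.5% of genes changed 4-fold were called, and 1.5% of genes changed 2-fold. The sums of all 214 members, which differed more between libraries, and genes of fewer UMIs were not simulated.

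Npm1 (nucleophosmin, a nucleolar protein of ribosome assembly, chr11:33152287-33163206 in mm10) had the smallest p among the 199 members. It was at 1324, 1184 and 1275 CPM in controls 1 to 3 and 1905, 1700 and 1934 CPM in smoking libraries 1 to 3. The groups did not overlap (log2 fold 0.58, SE 0.11), and the edgeR adjusted p was 0.169, whereas DESeq2 gave an adjusted p of 0.00244 and edgeR on barcodes thinned to 4000 UMIs gave 0.0257. With all 214 members the levels were 928, 1157 and 753 CPM and 1799, 847 and 1787 CPM, so smoking library 2, which holds the barcode of 369784 UMIs, fell among the controls (log2 fold 0.67, edgeR adjusted p = 1). Npm1 had also been named in an earlier account of these data, so its rank here is not independent of that account.

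The nucleolus and ribosome assembly list as a whole took 5767 to 6283 CPM in controls and 6870 to 7311 CPM in smoking libraries among the 199. Without Npm1 the sums were 4958, 4583 and 4954 CPM in controls and 5110, 5170 and 5377 CPM in smoking libraries, which still did not overlap, while with all 214 members they did. Of its 24 tested genes 20 had a positive log2 fold and 0 were called (median 0.18, -0.01 over all genes). Other lists moved as well: 73 of 85 ribosomal protein genes had a positive log2 fold (median 0.10), while 6 of 6 round spermatid markers (median -0.28) and 11 of 12 elongating spermatid markers (median -0.14) had a negative one, 0 of them called. With all 214 members, 12 of 12 elongating spermatid markers were positive (median 0.49). The part of these transcripts in the nucleolar sums was not tested. Gnl3, a nucleolar GTPase, was at 184, 160 and 172 CPM in controls and 232, 191 and 257 CPM in smoking libraries (log2 fold 0.42, SE 0.17, edgeR adjusted p = 0.818).

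The other genes with the smallest p among the 199 members did not pass either. Cwc22, a splicing factor, was at 148, 135 and 109 CPM in controls and 190, 229 and 257 CPM in smoking libraries (log2 fold 0.81, SE 0.18, edgeR adjusted p = 0.281). Stk31, a kinase-like germ cell protein, was at 74.1, 71.9 and 62.6 CPM and 131, 111 and 167 CPM (0.98, SE 0.22, edgeR adjusted p = 0.281). Rab33b, a small GTPase of the Golgi, was at 83.1, 41.8 and 38.1 CPM and 8.92, 15.6 and 13.7 CPM (-2.03, SE 0.41, edgeR adjusted p = 0.191). The groups did not overlap in any of the 3 genes, whereas with all 214 members those of Cwc22 and Stk31 did. Cst8, a cystatin, was at 153, 179 and 180 CPM in controls and 98.1, 105 and 73.8 CPM in smoking libraries (-0.85, edgeR adjusted p = 0.298), but with all members smoking library 2 was the highest of all at 673 CPM and the log2 fold was 0.12. Prdx2, a peroxide-reducing enzyme, was at 67.3, 46.4 and 24.5 CPM and 80.3, 109 and 95.7 CPM (1.05, edgeR adjusted p = 0.671). Med9os, annotated as antisense and so not separable from its partner without strand, was at 47.1, 74.3 and 65.4 CPM and 26.8, 22.3 and 21.9 CPM.

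With all 214 members, the 8 genes with the smallest p again included Rab33b. The others were the Sertoli cell genes Inha and Cst9, and Gm9112, Mfge8, Mesd, Atg14 and Zmym3, and none passed. Inha, a subunit of the hormone inhibin, was at 84.8, 74.0 and 35.9 CPM in controls and 0, 8.13 and 0 CPM in smoking libraries, a log2 fold of -3.75 (edgeR adjusted p = 1). Cst9 was at 411, 177 and 193 CPM and 10.7, 44.7 and 2.53 CPM with all members, and at 13.5, 6.96 and 16.3 CPM and 11.9, 31.2 and 0 CPM among the 199. Cst9 thus differed between the groups only in the sums that hold the barcodes with Sertoli markers, 5 from controls and 1 from a smoking library.

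**Figure D5:**
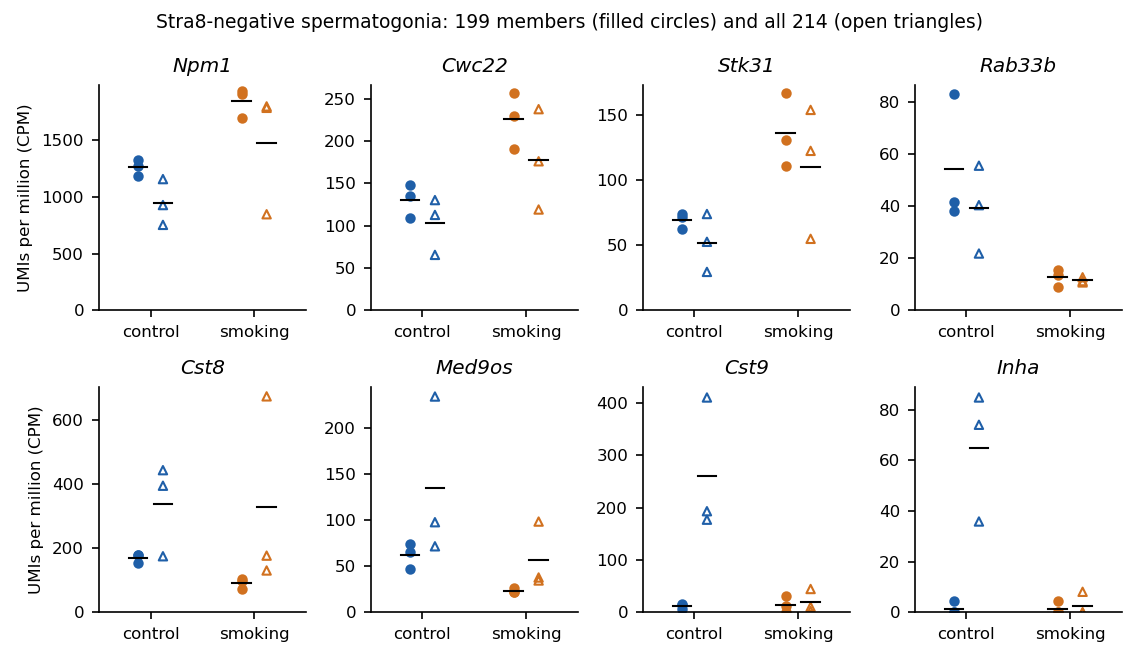
Level in CPM (y axis, from 0) of 8 genes per library in control (blue) and smoking (orange) libraries, from the 199 members (filled circles) and all 214 (open triangles); black bars are means of 3 libraries. Npm1, Cwc22 and Stk31 lie higher and Rab33b lower in smoking libraries among the 199, and the triangles of Inha and Cst9 lie higher in controls where the circles do not.

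Stem cell and differentiation genes gave no call between smoking and control. Of 8 tested undifferentiated genes among the 199 members, 7 had a positive log2 fold and 0 were called (median 0.50, -0.01 over all genes). Nanos3 was at 31.4, 4.64 and 13.6 CPM in controls and 32.7, 31.2 and 52.0 CPM in smoking libraries (log2 fold 1.20, SE 0.45, edgeR adjusted p = 0.818), Pou3f1 at 44.9, 132 and 133 CPM and 140, 156 and 150 CPM (0.57, SE 0.26, adjusted p = 0.826) and Epcam at 379, 374 and 349 CPM and 265, 329 and 306 CPM (-0.26, SE 0.14, adjusted p = 0.831). Pou3f1 and Epcam kept the groups apart and Nanos3 did not. Of 7 differentiating genes, 4 had a positive log2 fold, and Kit was at 83.1, 88.2 and 125 CPM in controls and 104, 86.8 and 62.9 CPM in smoking libraries, which overlapped. Gfra1 was at 4.49, 11.6 and 19.1 CPM and 5.95, 11.1 and 2.73 CPM, a level of few UMIs.

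Genes known to respond to smoke gave no call among those tested. Of the 26 genes of the NRF2 and aryl hydrocarbon list, 16 were tested with all 214 members and 11 had a positive log2 fold (median 0.20). Among the 199 members 15 were tested and 9 were positive (median 0.07), with 0 calls in either set. Gclc, which makes the first step of glutathione synthesis, was at 74.1, 90.5 and 92.6 CPM in controls and 116, 93.5 and 101 CPM in smoking libraries, without overlap. Hmox1 (heme oxygenase) was at 49.4, 51.1 and 24.5 CPM and 29.7, 37.8 and 41.0 CPM, with overlap. With all 214 members the median log2 fold was 0.06 over 17 p53 and DNA damage genes and 0.11 over 10 apoptosis genes. Over 24 S phase genes it was 0.04, and 11 were negative. Among the 199 the medians were 0.09, -0.04 and -0.10 over 16, 9 and 24 genes of these lists, and 18 S phase genes were negative. No gene of these lists was called in either set. All 12 mitochondrially encoded genes had positive log2 folds (median 0.23), 0 of them called, and mitochondrial genes took 5.72% ± 0.658 of the summed UMIs of the 199 in controls against 6.54% ± 0.272 in smoking libraries (exact permutation p = 0.2). Over all 214 the median share per member was 5.34% ± 0.197 against 6.20% ± 0.174 (exact permutation p = 0.1). Ptcra and Pbld1, listed because an earlier account of these data named them, rested on 44 and 68 UMIs over the 6 libraries. Ptcra was at 8.98, 11.6 and 10.9 CPM in controls and 38.6, 22.3 and 21.9 CPM in smoking libraries, and Pbld1 at 65.1, 11.6 and 79.0 CPM and 0, 8.90 and 2.74 CPM. Pbld1 was called when control 2 was left out (log2 fold -3.92, edgeR adjusted p = 0.000135), and control 1 and control 3 held most of its UMIs.

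Whether smoking acted differently in Stra8-negative and Stra8-positive spermatogonia was tested with limma on the within-library differences. No gene passed: 0 of 8094 with all barcodes (824 at an unadjusted p under 0.05) and 0 of 7618 without those standing apart (461). With all barcodes 284 genes passed when control 2 was left out and 2, the Sertoli cell genes Defb19 and Cst9, when control 1 was left out.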

How the data were processed

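The deposited values were raw UMI counts per gene and barcode, 30905 genes, filtered by the authors to called cells. Per the labels' protocols, left testes were dissociated, dead cells removed and 10x 3′ libraries made. The submitters' processing notes name CASAVA 1.8, Cell Ranger 7.1.0 and genome build mm10, while per the file headers the count matrices come from Cell Ranger 3.1.0, and neither source settles which applies. The sources used here do not say whether counting used strand. Gene positions are those of GENCODE M21.

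Members were selected on 15 genes, and members and lists were chosen with earlier results of these data known. Counts were summed per class and library (members 375136 to 983609 UMIs per library, 336403 to 449313 without the barcodes standing apart) and tested with edgeR 4.0.16 (R 4.3.3, TMM, filterByExpr, quasi-likelihood, library as a block between classes, Benjamini-Hochberg over all genes tested). The 15 genes counted in library sizes and entered no test. The fit was tested on simulated counts. The smoking effect between classes was tested with limma 3.58.1 on log2 CPM (prior count 2), and shares with exact two-sided permutation over 20 assignments or sign flips over 64. Doublets were scored with 50 neighbours at 0.8% per 1000 barcodes and kept in the main result. Sertoli markers were summed without Ctsl when barcodes standing apart were defined. Alternatives were DESeq2 1.42.0, thinning to 4000 UMIs, other thresholds, no filter on low counts, no library block, and each library left out.

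Named genes were, between smoking and control, the 8 with the smallest p and at least 20 CPM, since fewer than 3 passed. Between classes they were called genes of at least 50 CPM with one sign in all 6 libraries (up to 12 in each direction, 8 for early meiotic cells), up to 4 called genes per list, and the stem cell and differentiation genes of at least 20 CPM. The genes shown for detection and for the Gfra1 and Kit splits, and Gnl3, Gclc, Hmox1, Insl3, Defb19, Rpl38, Rps26, Malat1, Sh3glb1 and Odf2, were chosen after values were seen. Intervals are not given for pooled shares, and p-values and errors cover the spread between libraries only.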

Additional observations from a re-analysis of the deposited data

How the results depend on the processing

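Smoking against control gave 0 called genes in edgeR with all members. With DESeq2 1 gene passed, with thinning to 4000 UMIs 5 (Npm1 higher, Cst9, Cst12, Ctsl and Defb19 lower), and without the barcodes standing apart 1 with DESeq2 and 1 with thinning (Npm1 in both). Leaving out 1 library gave 0 to 1 calls without the barcodes standing apart (Pbld1 without control 2, Gm26772 without smoking library 1). Against Stra8-positive cells the 269 calls became 446 with DESeq2 (437 higher, 9 lower), 1600 with no filter on low counts, 982 with Stra8-positive cells at 3 UMIs or more, 85 with thinning, 0 with a minimum of 6000 UMIs and 0 with no library block. Without the barcodes standing apart they were 92, and then 5 with DESeq2 and 12 with thinning, which tested 62 of the 92 and gave the same sign in 62. Leaving out 1 library gave 0 to 649 calls with all barcodes and 39 to 158 without those standing apart. Against early meiotic cells the 3865 calls became 5947 with no filter, 1714 with thinning and 1570 with thinning and no barcodes standing apart, and DESeq2 gave 5169, split 3150 higher and 2019 lower. The smoking effect between the 2 classes gave 0 to 284 calls with 1 library left out.

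The Stra8-negative share of gated cells, 2.99 percentage points lower in smoking libraries, was 1.20 points higher with at least 6 UMIs of the 8 genes, and lay between -5.26 and 0.454 with 1 library left out, the last without smoking library 2. The X-linked share against early meiotic cells differed by 0.844 to 0.969 points with 1 library left out. Against Stra8-positive cells it differed by -0.0874 points without high doublet scores, where the exact sign-flip p was 0.031. The difference in member share stayed negative under each alternative, from -1.94 to -0.103 points. The cause of these changes was not tested. No named gene that passed with all barcodes changed sign under the alternatives that tested it. Named genes that passed only without the barcodes standing apart were not part of that check. Nor were the fits that left out both those barcodes and 1 library. No paired analysis was possible because replicate numbers follow accession order and pair no animals between groups; the library block above joins classes of one library. At this depth, changes of 2-fold between smoking and control could mostly not be detected, and genes of few UMIs were not tested.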

Other observations

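Ly6k, Gml and Gml2, which lie next to one another on chromosome 15 (mm10, chr15:74796874-74799986, chr15:74813452-74818815 and chr15:74819071-74834871), were all low in the members and high in early meiotic cells. Without the barcodes standing apart, Gml was at 6.9 CPM ± 4.0 against 594 CPM ± 79.5 and Gml2 at 3.7 CPM ± 2.7 against 356 CPM ± 41.2 (SD over 6 libraries), with edgeR log2 folds of -6.30 and -6.44, and Ly6k at -4.58. Gml and Gml2 are related genes, and counting could have split reads between them. The opposite pattern was seen in Trim71, an RNA-binding ubiquitin ligase gene of stem cells, with 257 UMIs in the 199 members and 3 in the 185 early meiotic barcodes, and in Gsr, the glutathione reductase gene, with 309 UMIs and 3.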
